A study of Mus musculus with 10 samples.

Results

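The regions described here are 20 windows of 10 kb on the mouse autosomes in which cytosines were read far more often than in most of the genome. The windows were chosen by read depth. A window was taken when it held at least 20 CpG cytosines that 10 or more reads covered in each library and the median read number over those cytosines was at least 30 in both. These conditions were met by 23 of 30385 autosomal windows with at least 20 such cytosines. A window on chromosome 17 that holds a copy of ribosomal DNA and 2 adjoining windows on chromosome 13 were left out by the same rule, which left 20. The 20 windows hold 1130 cytosines in 670 CpGs, out of 2691781 cytosines read that often and 6745376 listed in all.

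Methylation came from reduced-representation bisulfite sequencing (RRBS), in which the unmethylated cytosines of restriction fragments are converted and read as thymine. The cells were ID4-EGFP+ spermatogonia from testes of LT-11B6 pups, an Id4-eGfp transgenic line on the C57BL/6 background, at postnatal day 6. Sorting on an antibody against the surface tetraspanin TSPAN8 gave a TSPAN8-high fraction, the 1/3 of cells with the strongest stain, and a TSPAN8-low fraction, the 1/3 with the weakest positive stain. For each fraction, 300 ng of DNA from 5 pooled sorts was cut with BfaI, MseI and MspI and sequenced as paired reads of 50 bp, so each fraction is 1 library with no replicate and no error between replicates. Both fractions carried the same transgene and the labels name no treatment. The p values below compare these 2 libraries, not the 2 cell populations.

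Regions that collect an excess of reads in short-read data are often ones whose sequence occurs many times in the genome but only once or a few times in the assembly, such as satellite arrays, ribosomal DNA and recent duplications. A methylation level there is an average over all the copies whose reads were placed on the assembled one. In male germ cells, DNA methylation is erased in the embryo and restored before birth over most of the genome, repeats included, while promoters rich in CpG usually stay unmethylated. How reads that match several places were treated is not given in the sources used here, and the number of copies was not measured.

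No genome was used here, so the sequence of the windows is shown only where the RefSeq promoter table (assembly GRCm38.p6) reaches into them. The following stretches end at annotated transcript starts, or at the edge of the annotated gene, in 3 of the windows. They are shown because the CpGs measured in them were low in both libraries. They run 5′ to 3′ on the strand of the gene, and capitals mark the CpGs measured with at least 10 reads in both libraries.
Hjurp, chr1:88277645-88277829, minus strand: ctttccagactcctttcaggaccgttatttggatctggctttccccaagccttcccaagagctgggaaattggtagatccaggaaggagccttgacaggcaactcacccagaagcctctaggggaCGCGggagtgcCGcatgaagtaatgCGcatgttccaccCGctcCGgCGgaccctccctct
Psmg1, chr16:95990961-95991210, minus strand: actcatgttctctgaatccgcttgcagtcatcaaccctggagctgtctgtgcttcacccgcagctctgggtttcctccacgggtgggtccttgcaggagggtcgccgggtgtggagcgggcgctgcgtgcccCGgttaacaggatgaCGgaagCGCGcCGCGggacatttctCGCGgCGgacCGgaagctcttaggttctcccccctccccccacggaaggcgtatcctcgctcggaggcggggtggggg
Hax1, chr3:89998717-89998966, minus strand: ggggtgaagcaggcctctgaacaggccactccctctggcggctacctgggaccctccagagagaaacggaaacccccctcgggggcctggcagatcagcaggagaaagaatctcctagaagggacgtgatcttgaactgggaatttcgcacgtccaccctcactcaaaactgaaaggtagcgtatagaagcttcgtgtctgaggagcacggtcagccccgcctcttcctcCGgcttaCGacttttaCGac
The 185 bases shown for Hjurp, which encodes the chaperone that deposits the centromeric histone CENP-A, hold 8 CpGs, of which 7 were measured. Their 12 cytosines had a mean level of 0.833% for TSPAN8-high and 0.917% for TSPAN8-low, with median depths of 72.5 and 70 reads. The 250 bases before Psmg1, a proteasome assembly chaperone, hold 23 CpGs, of which 10 were measured, and their 18 cytosines were at 0% and 2.83%. The 250 bases before Hax1, a mitochondrial protein that restrains cell death, hold 13 CpGs, of which 3 were measured, and their 5 cytosines were at 0% and 1.60%. None of the promoter entries behind these stretches shared a run of 50 bases, on either strand, with a promoter elsewhere among the 32851 entries of the table. That comparison covers promoters only and says nothing of copies elsewhere in the genome.

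Depth chose the windows and is given as a description. The windows hold 0.0420% of the cytosines with at least 10 reads, yet they took 0.515% of the reads over such cytosines for TSPAN8-high and 0.532% for TSPAN8-low. The median cytosine of the windows was covered by 48.5 (TSPAN8-high) and 48 (TSPAN8-low) reads, where the median elsewhere was 16 in both. Total reads over all listed cytosines were 83658949 and 83773700. The window with the highest median was that in the long non-coding RNA gene Gm36876, with 1668 and 1684 reads. Just inside the minimum were the windows named for Zswim1, with medians of 30 and 30, Zfp978, with 30 and 34, and Vmn2r-ps20, with 30 and 30.5. Just outside were chr1:88260001-88270000, with 29 and 29, and chr9:3010001-3020000, with 32 and 29. The ratio of total reads in TSPAN8-high to TSPAN8-low lay between 0.877, in the chromosome 14 window, and 1.19, in the second Tmem267 window.

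As a check of the germ cell label, imprinted regions that are unmethylated in male germ cells were low in both libraries near an end of Peg3, Kcnq1ot1 and Mest. Around the upper end of Peg3 the 14 cytosines averaged 1.29% for TSPAN8-high and 1.00% for TSPAN8-low, around that of Kcnq1ot1 the 23 cytosines averaged 0.348% and 1.65%, and around the lower end of Mest the 21 cytosines averaged 15.4% and 14.8%. The 8 cytosines on the upper side of H19, where male germ cells are methylated, averaged 98.9% and 96.4%. Snrpn had only 2 cytosines, at a mean of 100% and 85.5%. The lower end of Peg3 also had only 2, at a mean of 96% and 100%. Both go against the other maternally methylated regions, and 2 cytosines are too few to place a region.

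By annotation, 13 of the 20 windows overlapped a gene, 19 genes in all, and 10 overlapped a protein-coding gene. Few of the gene families that are often multicopy were on the list, and their share among the other windows was not counted. The ribosomal DNA window of chromosome 17 had been left out by the rule. No window overlapped an annotated gene for ribosomal RNA, transfer RNA, small nuclear RNA, histones, the Speer or Dux families or the Sp100 array of chromosome 1. A zinc finger gene, Zfp978, and a vomeronasal receptor pseudogene, Vmn2r-ps20, lay in 1 window each. The 7 windows without a gene included one on chromosome 3 whose nearest gene, the pseudogene Gm8797, was 108706 bp away. Neighbouring windows both passed at Hjurp, where the flank window began 2357 bp past the gene, and at Sfi1, which encodes a centrin-binding spindle protein, and Tmem267, a membrane protein gene, with 2 windows each.

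Most of the windows had a mean level between 20% and 80%, which sets them apart from the rest of the table as a description. The mean level of the 1130 cytosines was 45.7% for TSPAN8-high and 46.2% for TSPAN8-low, against 72.7% and 72.8% at all other cytosines with at least 10 reads. At 43.4% of the cytosines for TSPAN8-high and 41.5% for TSPAN8-low the level lay between 20% and 80%, where only 9.69% and 9.29% of the others lay. Deep cytosines outside the windows did not share this, since of 80480 with at least 30 reads in both libraries 7.30% and 7.20% were between 20% and 80%. Among the 749 window cytosines with that depth the shares were 47.0% and 44.9%. The mean of the window means was 47.4% ± 21.7 (SD over 20 windows) for TSPAN8-high and 47.9% ± 21.3 for TSPAN8-low. Of the 20 windows, 16 in TSPAN8-high and 17 in TSPAN8-low had a mean between 20% and 80%, while 40.6% of 30362 other autosomal windows did in each library.

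**Figure D1:**
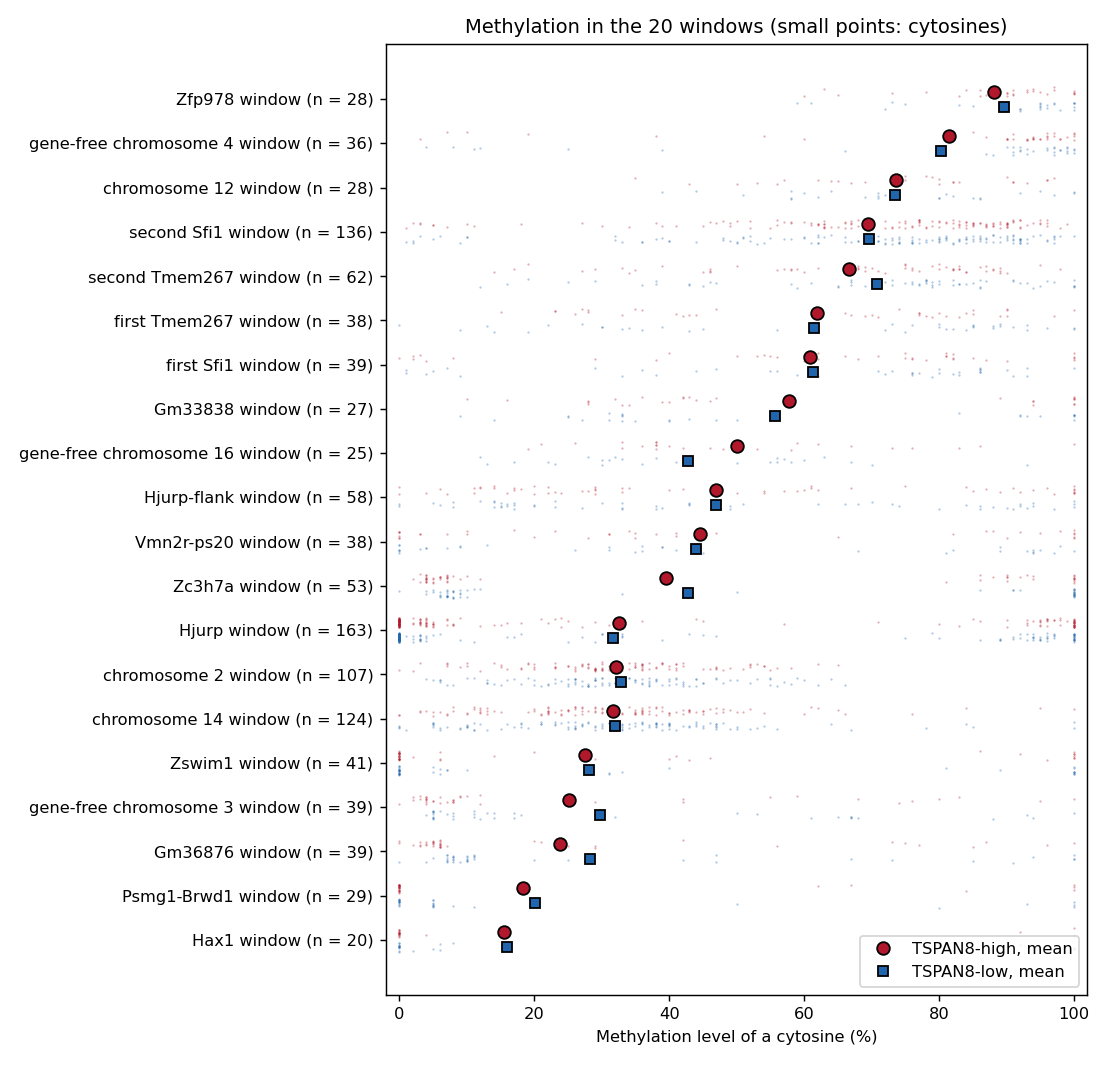
Methylation level in percent (x axis) in each of the 20 windows (y axis, with the number of cytosines), where small points are cytosines, circles are the means of TSPAN8-high and squares those of TSPAN8-low. The means run from 15.6% in the Hax1 window to 88.1% in the Zfp978 window in TSPAN8-high, and the libraries lie close together in most windows.

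A window mean near the middle came about in different ways. In the Hjurp window 61.3% of the cytosines in TSPAN8-high were below 20% and 28.2% above 80%, so its mean of 32.6% for TSPAN8-high and 31.7% for TSPAN8-low joins low and high stretches. The chromosome 2 window had nearly the same means, 32.0% and 32.8%, but 83.2% of its cytosines lay between 20% and 80% in each library and none above 80%. For the description, the windows were sorted into 4 kinds after their values had been seen. These are the windows of chromosome 2, chromosome 14 and Gm33838, grouped for their CpG spacing, 3 windows with a short, very deep and nearly unmethylated stretch, 3 windows whose cytosines lay mainly near gene ends, and the other 11. No test was run on these kinds.

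The first 3 windows were chr2:98660001-98670000, chr14:19410001-19420000 and chr9:35300001-35310000, the last in the long non-coding RNA gene Gm33838. The mouse major satellite, which makes up the pericentric heterochromatin, is a tandem array of a unit between 200 and 300 bp long. Within that range, pairs of listed CpGs in the chromosome 14 window were most often 234 bp apart, with 27 of its 1255 pairs within 1 bp of that distance. The distance was taken from this window, so its own count is a description. Pairs at whole multiples of it were not the most frequent, since 585 bp, which is 2.5 units, had 29 pairs, and 351 and 819 bp had 25 each, while 468 bp had 15 and 702 bp had 10.

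The same distance was then counted in the other windows. The chromosome 2 window had 11 of 654 pairs there, where an even spread over distances would give 1.96, but more pairs, 13, lay at 119 bp. Within 1 bp of 234 bp the Gm33838 window had 3 of 77 pairs, against 0.231, and 18 of its 27 cytosines lay in 1 stretch of 1 kb. The second Sfi1 window had 8 of 1304 pairs, against 3.91, and the Hjurp window 6 of 1879, against 5.64. As shares of pairs, the chromosome 14, chromosome 2 and Gm33838 windows stood at 2.15%, 1.68% and 3.90%. The Zfp978 window reached 2.08% with 1 of 48 pairs, and every other window was at 0.692% or less. By count, the 3 pairs of the Gm33838 window were fewer than those of the second Sfi1 and Hjurp windows. They were also fewer than the 5 of the Psmg1-Brwd1 window, where an even spread would give 2.39. At 468, 702 and 936 bp the chromosome 2 window had 3, 1 and 1 pairs, and the Gm33838 window had 0 at each. Only the positions of CpGs were used, so the spacing does not identify a repeat. The label of the windows as repeats was not tested by sequence for any of the 20.

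**Figure D2:**
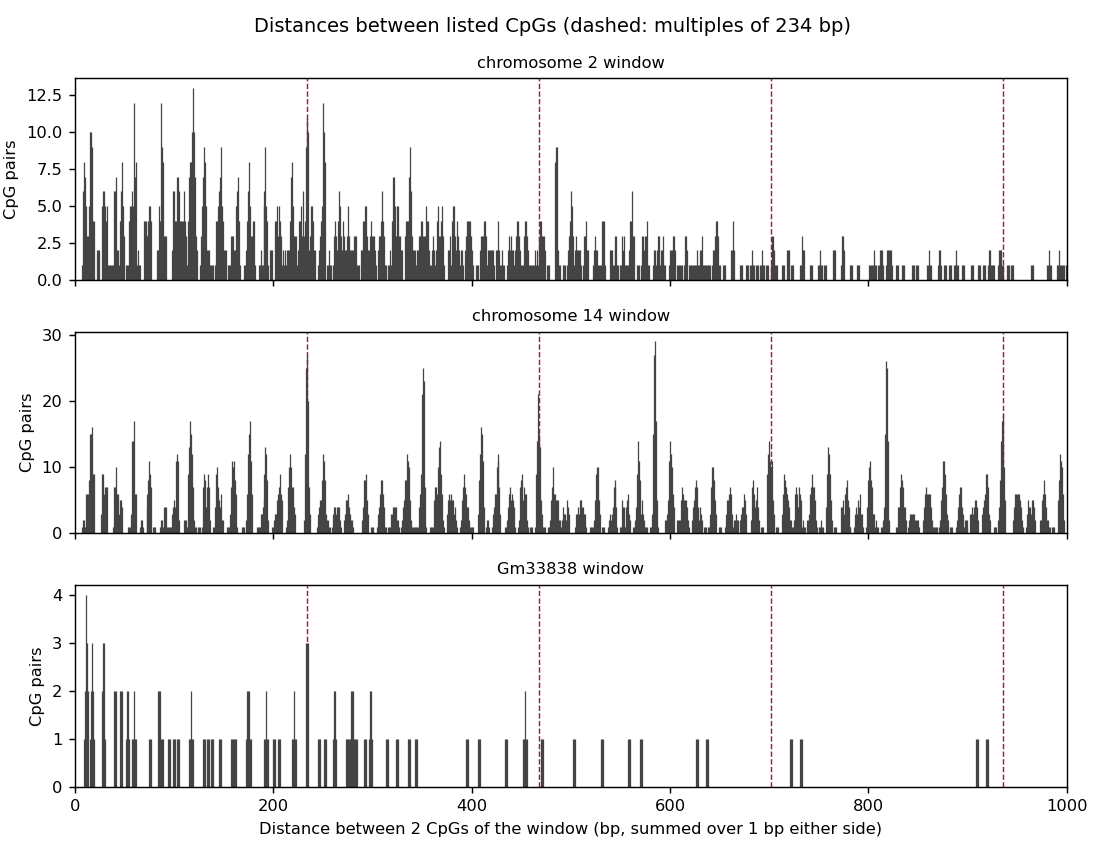
Number of pairs of listed CpGs (y axis) at each distance in bp (x axis, summed over 1 bp either side) in the windows of chromosome 2, chromosome 14 and Gm33838, with dashed lines at multiples of 234 bp. The chromosome 14 window has regular peaks, of which the highest, at 585 bp with 29 pairs, lies between the dashed lines, while the Gm33838 window has few pairs in all, with 3 within 1 bp of 234 bp.

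Over the 258 cytosines of these 3 windows the mean level was 34.5% for TSPAN8-high and 34.8% for TSPAN8-low, and 77.1% and 75.2% of them lay between 20% and 80%. The chromosome 2 window averaged 32.0% ± 13.4 (SD over 107 cytosines) for TSPAN8-high and 32.8% ± 14.3 for TSPAN8-low, with levels from 0% to 65% and from 4% to 66%. The chromosome 14 window averaged 31.6% ± 17.9 (SD over 124 cytosines) and 32.0% ± 18.7. Intermediate levels were seen at very high depth too. The most deeply read cytosine of the chromosome 14 window had 6063 and 7640 reads and stood at 47% and 50%, and on chromosome 2 a cytosine with 4718 and 4577 reads stood at 35% and 37%. The cytosine with the most reads in the chromosome 2 window, 5203 and 5176, was at 9% and 8%, so depth alone did not order the levels there. In the Gm33838 window the 8 cytosines read at least 100 times in each library lay within 118 bp and averaged 29.8% and 29.3%, while the other 19 averaged 69.5% and 66.8%.

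The windows with a deep, nearly unmethylated stretch were chr11:109010001-109020000 in Gm36876, chr16:11140001-11150000 in Zc3h7a, an RNA-binding zinc finger gene, and the gene-free chr3:5860001-5870000. In the Gm36876 window 23 cytosines within 193 bp had at least 100 reads in both libraries, with medians of 1978 and 2107 reads. They averaged 4.96% ± 1.30 (SD over cytosines) for TSPAN8-high and 8.57% ± 1.80 for TSPAN8-low, and the other 16 cytosines of the window averaged 50.9% and 56.6%. In the Zc3h7a window 30 such cytosines lay within 73 bp and averaged 5.27% ± 1.68 and 7.50% ± 1.89, and the other 23 averaged 84.1% and 88.8%. In the gene-free chromosome 3 window 22 such cytosines within 268 bp averaged 5.82% ± 2.97 and 8.68% ± 4.71, and the other 17 averaged 50.1% and 56.9%. These other cytosines, read fewer than 100 times in at least 1 library, lay partly inside the deep stretches. In the Gm36876 window 5 of the 16 did, with levels from 25% to 85% for TSPAN8-high and from 42% to 85% for TSPAN8-low at medians of 16 and 19 reads. In the gene-free chromosome 3 window 13 of the 17 did, at means of 45.2% and 50.5%, and in the Zc3h7a window 1 of the 23 did, at 90% and 100%. Deeply and thinly read cytosines of the same stretch thus differed in level. At 1 CpG of the Gm36876 stretch the minus strand had 1668 and 1684 reads at 6% and 11%, and the plus strand 26 and 34 reads at 85% in both libraries.

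The libraries also differed in one direction within these stretches. All 23 deep cytosines of the Gm36876 window were lower in TSPAN8-high, as were 26 of 30 in the Zc3h7a window, with 3 higher, and 18 of 22 in the gene-free chromosome 3 window, with 4 higher. In the authors' deposited table the difference at these cytosines was below 0 at 23, 25 and 18 of them. Neighbouring CpGs are read by the same molecules, so these cytosines are not independent. For comparison, the left-out ribosomal DNA window of chromosome 17 had 858 cytosines at a mean of 9.61% for TSPAN8-high and 13.9% for TSPAN8-low, with 768 lower and 84 higher in TSPAN8-high. Whether the short deep stretches share sequence with that window was not tested.

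**Figure D3:**
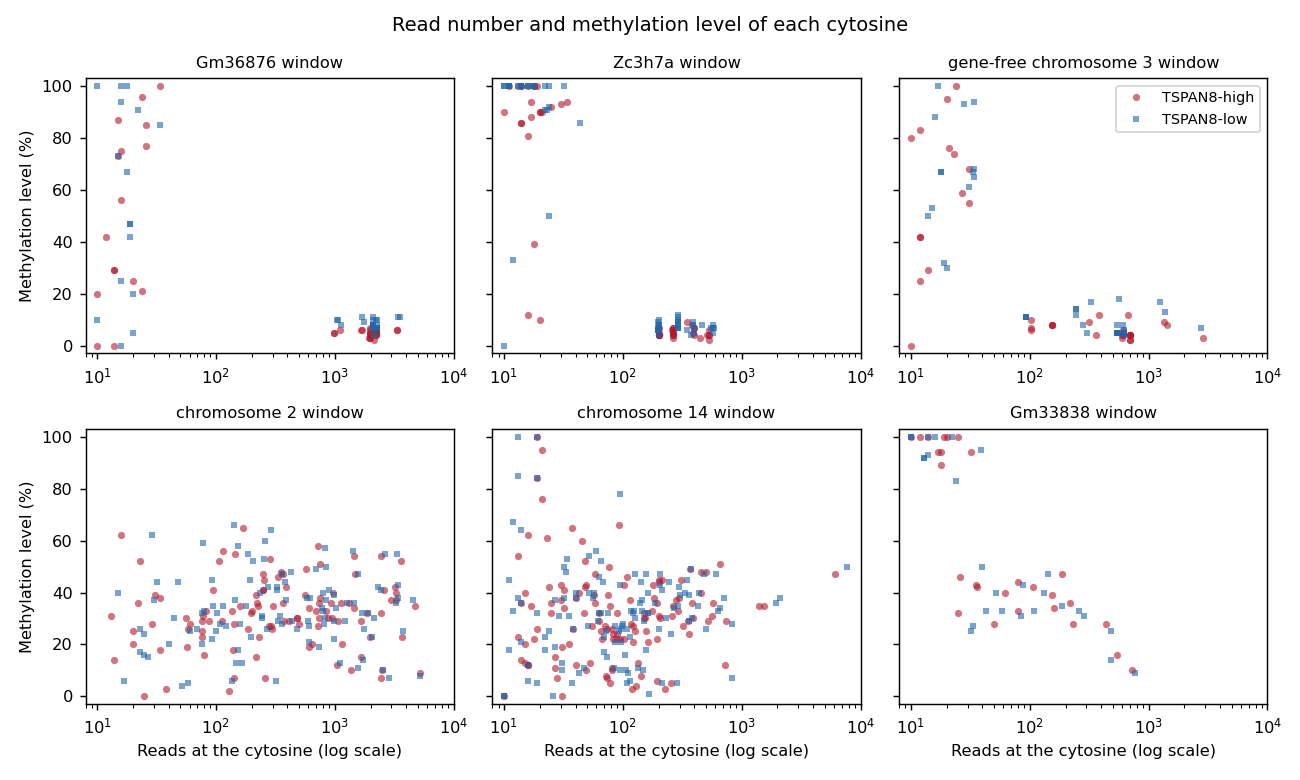
Methylation level in percent (y axis) against the reads at the cytosine (x axis, log scale) for every cytosine of the 3 windows with a deep low stretch (upper row) and the windows of chromosome 2, chromosome 14 and Gm33838 (lower row), with circles for TSPAN8-high and squares for TSPAN8-low. In the upper row the points at high depth gather near 5% to 10% apart from shallower, mostly higher ones, while in the chromosome 2 and 14 windows levels between 20% and 60% extend over the whole range of depth.

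In the 3 windows grouped by gene ends the median depth was 30 to 36 reads, just over the minimum. Most of their cytosines lay no more than 1 kb from where an annotated protein-coding gene ends or begins. The gene table gives no strand, so such an end need not be a promoter. These were chr16:95990001-96000000, between Psmg1 and the bromodomain gene Brwd1, chr2:164820001-164830000 over Acot8, Zswim3, Zswim1 and Spata25, and chr3:89990001-90000000 over Hax1, Gm19710 and Ubap2l. Within 1 kb of a gene end, the Hax1 window had 17 cytosines at a mean of 1.12% for TSPAN8-high and 1.59% for TSPAN8-low, and its other 3 were at 97.3% in both. Near the ends of Psmg1 and Brwd1, 24 cytosines averaged 3.33% and 4.54%, and the other 5 averaged 90.2% and 94.6%. In the Zswim1 window 35 cytosines near gene ends averaged 17.1% and 16.6%, with a spread of 31.8 and 32.2 (SD), since 4 of them were above 80% in each library. The most deeply read cytosines of these windows had 42 to 52 reads in TSPAN8-high, against 5203 and 6063 in the windows of chromosomes 2 and 14.

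The Hjurp window, chr1:88270001-88280000, had the same contrast with 163 cytosines, the most of any window. With medians of 34 and 36 reads and most cytosines near the gene end, it also met the description of those 3 windows. It was nevertheless counted among the other 11. Its 97 cytosines within 1 kb of the gene end averaged 1.91% for TSPAN8-high and 0.649% for TSPAN8-low, all below 20% in both, and its other 66 averaged 77.6% and 77.2%, with 46 and 45 of them above 80%. The sequence shown above for Hjurp lies in that low stretch. The flank window next to it, chr1:88280001-88290000, with no gene, averaged 46.9% ± 33.3 and 47.0% ± 33.2 over 58 cytosines. Around the end of Tmem267 a partly methylated stretch was seen in place of an unmethylated one, with 15 cytosines at 34.0% and 26.3% in the first window and 23 at 61.2% and 65.9% in the second.

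**Figure D4:**
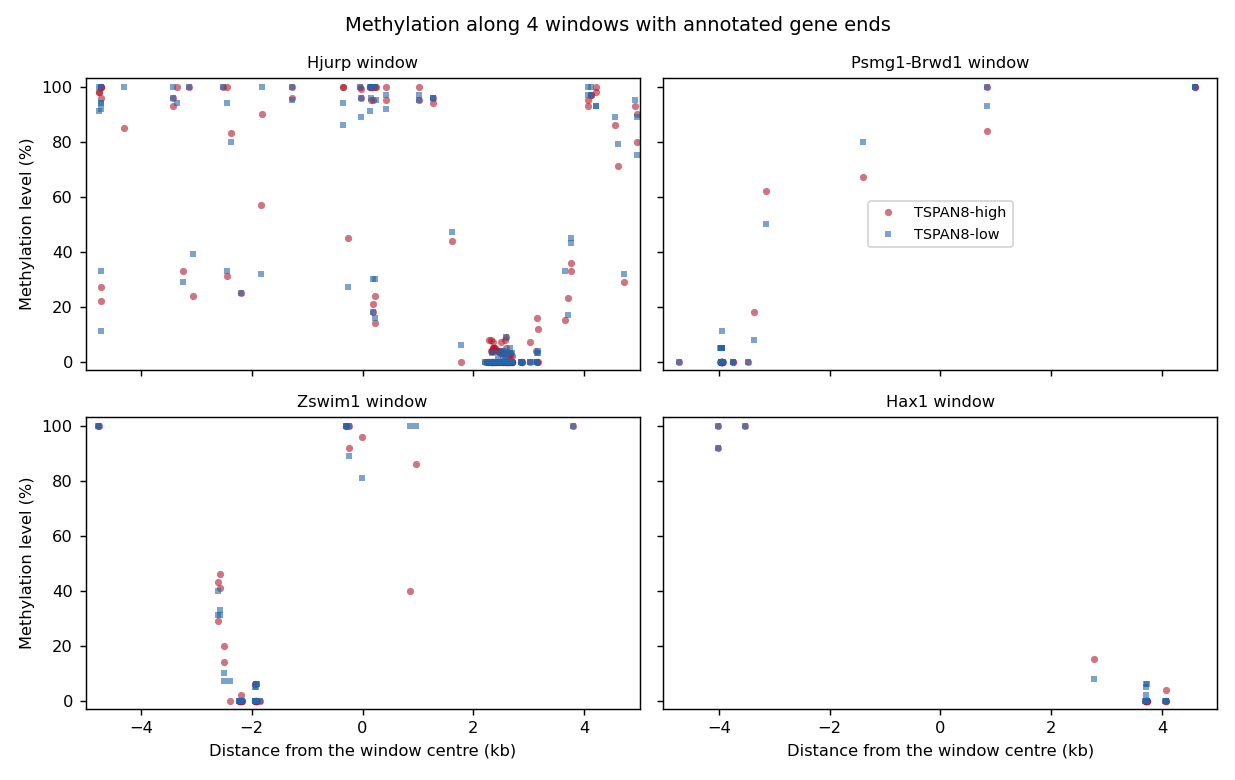
Methylation level in percent (y axis) against the distance from the window centre in kb (x axis) for each cytosine of the Hjurp window and the 3 gene-end windows, with circles for TSPAN8-high and squares for TSPAN8-low. Each window has a cluster of points near 0% in both libraries and points near 100% away from it. In the Hjurp window 97 cytosines form the low cluster.

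The other 11 windows, those of Hjurp among them, together held 651 cytosines at a mean of 56.4% for TSPAN8-high and 56.3% for TSPAN8-low. The Zfp978 window was the most methylated, at 88.1% ± 11.1 (SD over 28 cytosines) and 89.7% ± 11.5, with none of its cytosines below 20%. The gene-free chromosome 4 window followed at 81.5% and 80.3%, and the chromosome 12 window, 10739 bp from the nearest gene, at 73.6% and 73.5%. The second Sfi1 window, which also holds the pseudogene Fau-ps2, averaged 69.4% and 69.6% over 136 cytosines, and the first averaged 60.9% and 61.3% over 39. In the first Sfi1 window 6 of the 39 cytosines were below 20% in each library. They included its most deeply read cytosine, with 1393 and 1461 reads at 2% and 1%, and another with 417 and 546 reads at 0% and 1%. The other strand of the CpG read most deeply had 44 and 37 reads at 50% and 86%, and the cytosine with the next most reads, 834 and 907, was at 85% and 86%. The Vmn2r-ps20 window, also on chromosome 4, averaged 44.6% and 43.9%, with 31.6% of its cytosines above 80% in each library.

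The libraries were compared in each window by a two-sided Fisher's exact test on the reads pooled over its cytosines, with Benjamini-Hochberg adjustment over all 30407 windows with at least 20 cytosines. A call required an adjusted p under 0.05 together with a change of 10 percentage points or more. None of the 20 windows was called, where 2.16% of all windows were. At an unadjusted p below 0.05 there were 10 of the 20, against 21% of all windows. With no minimum on the size, 9 of the 20 passed the adjusted test, against 6.98% of all windows. Of these, 7 were lower in TSPAN8-high (35% of the 20, against 4.12% of all windows) and 2 were higher (10%, against 2.86%). Only 2 of the 9 differed by 5 points or more, where 1712 of the 2121 windows that passed in the whole table did. As shares of the windows tested, this was 10% of the 20, against 5.63% of all windows. Read number raises the chance of passing, and the windows were chosen for it. The reads of a window are counted at each CpG they cover, which makes the p values too small. With read numbers halved, or with 1 cytosine kept per 100 bp, 2 windows passed, those of Gm36876 and the gene-free chromosome 3. The share of all windows that passed under these settings is not given here.

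In the Gm36876 window 5.31% of pooled reads were methylated for TSPAN8-high and 8.90% for TSPAN8-low. The difference was -3.58 points with a 95% Newcombe interval from -3.91 to -3.26, which covers counting error only, and its adjusted p in Fisher's exact test was 1.52e-99. With 1 cytosine per 100 bp the difference was -2.74 points, and the adjusted p in that test was 0.0143. In the gene-free chromosome 3 window the pooled levels were 6.27% and 9.99%, a difference of -3.72 points (-4.33 to -3.12, adjusted p = 6.79e-30 in Fisher's exact test). With 1 cytosine per 100 bp it was -8.18 points (adjusted p = 8.89e-06 in Fisher's exact test). The Zc3h7a window had 8.45% and 10.6%, a difference of -2.19 points (-2.99 to -1.38, adjusted p = 4.63e-05 in the same exact test). Its adjusted p in that exact test was 0.0712 with halved reads and 0.339 with 1 cytosine per 100 bp. The pooled values of these windows come mainly from the deep stretches, and the mean over cytosines moved the same way, from 28.3% in TSPAN8-low to 23.8% in TSPAN8-high in the Gm36876 window and from 29.7% to 25.1% in that of chromosome 3.

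The differences of 5 points or more were in shallower windows. The gene-free chromosome 16 window, chr16:3250001-3260000, had 47.2% for TSPAN8-high and 39.4% for TSPAN8-low, a difference of 7.80 points (3.33 to 12.2, adjusted p = 0.0178 in Fisher's exact test), with 16 of 25 cytosines higher. The Vmn2r-ps20 window had 47.9% and 54.4%, a difference of -6.47 points (-10.5 to -2.44, adjusted p = 0.0325 in Fisher's exact test). Its unweighted mean over cytosines differed by 0.684 points the other way, so the direction depended on the weighting. The same held for the Zswim1 window, where the pooled difference was 4.80 points (adjusted p = 0.0454 in the exact test) and the unweighted one -0.585. The second Tmem267 window, at -3.28 points, the Zfp978 window, at -4.24, and the chromosome 14 window, at -1.60, were lower in TSPAN8-high under both weightings, with adjusted p of 0.0425, 0.0408 and 0.00461 in the exact test. The chromosome 2 window, with the most reads in all, differed by -0.418 points, and its interval from -0.859 to 0.0238 includes 0.

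**Figure D5:**
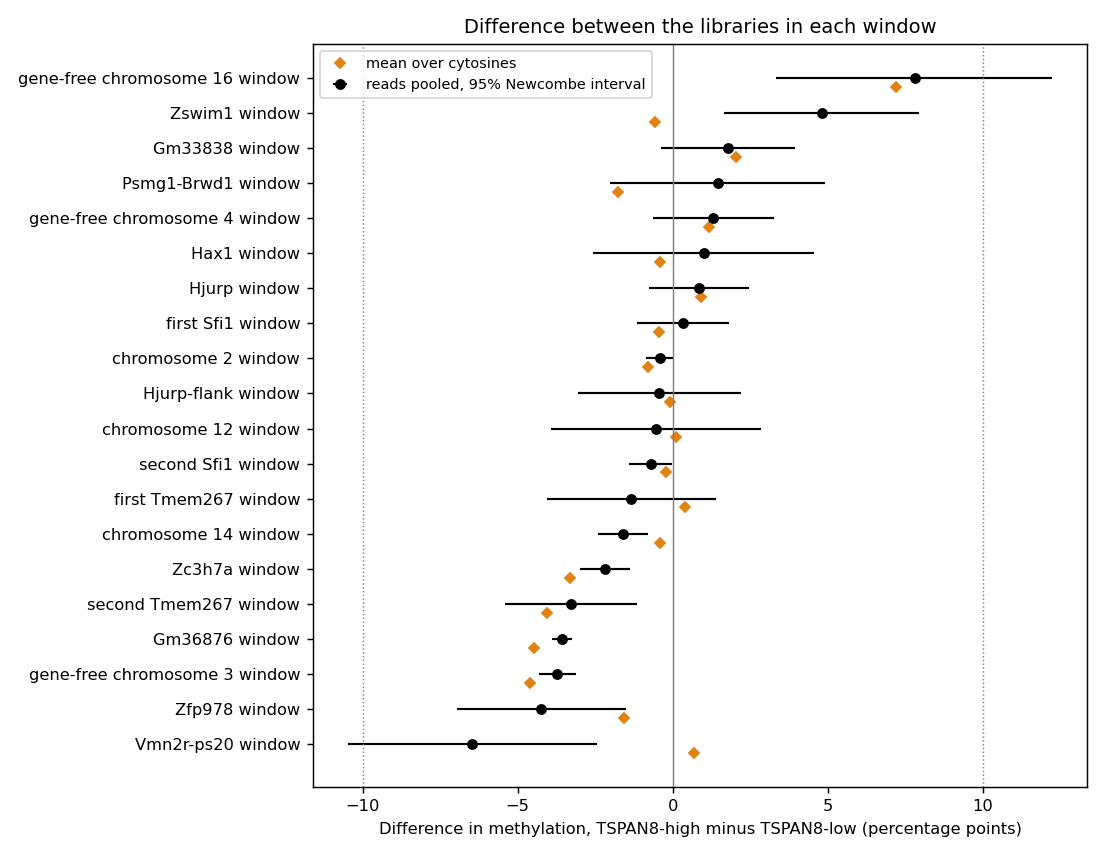
Difference in methylation in percentage points, TSPAN8-high minus TSPAN8-low (x axis), for each window (y axis), as the difference of pooled reads with its 95% Newcombe interval (circles) and as the difference of means over cytosines (diamonds). Dotted lines mark the 10 points that a call requires. All 20 pooled differences lie between -6.47 and 7.80, and 12 are below 0.

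Over all 1130 cytosines the mean difference was -0.561 points, against -0.108 at the other cytosines. Of the window cytosines, 555 were lower in TSPAN8-high, 435 higher and 140 equal. As shares, 49.1% were lower and 38.5% higher, against 28.1% and 27.3% at the other cytosines, where 1201930 of 2690651 were equal. The deep low windows account for 100 of the 555 lower and 21 of the 435 higher. Their mean difference over 131 cytosines was -4.04 points, from 34.6% in TSPAN8-low to 30.5% in TSPAN8-high. In the windows of chromosome 2, chromosome 14 and Gm33838 it was -0.326 points, with 136 lower and 117 higher, and in the other 11 windows 0.0952 points, with 296 lower and 281 higher. In the gene-end windows it was -0.922 points, with 23 lower and 16 higher, while their pooled reads differed the other way, at 17.8% for TSPAN8-high and 15.1% for TSPAN8-low. The Hjurp window, counted among the other 11, had a mean difference of 0.896 points, with 38 lower and 62 higher. The signs for the other 11 and for the gene-end windows depend on where that window is counted.

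Single cytosines were tested in the same way with adjustment over all 2691781 of them, and called at a difference of at least 20 points. None of the 1130 was called, where 0.00568% of all cytosines were, and 92 had an unadjusted p below 0.05, against 2.72%. Of those 92, 66 were lower in TSPAN8-high (5.84% of the 1130, against 1.42% of all cytosines) and 26 were higher (2.30%, against 1.31%). With no minimum on the size 11 of the 1130 passed, against 0.0106% of all cytosines. All 11, or 0.973% of the 1130, were lower in TSPAN8-high, where the share of all cytosines was 0.00691%, and none was higher, where it was 0.00364%. Read number raises the chance of passing here too. Among cytosines with at least 30 reads, 11 of 749 in the windows passed at any size, against 0.0373% outside them. Depth was not matched by this, since the medians were 90 and 92 reads in the windows and 38 and 36 outside, and each of the 11 had at least 1246 reads in both libraries. An unadjusted p below 0.05 was found at 85 of the 749, against 5.85% outside, and none of the 749 was called at 20 points, against 0.0211% outside. Of the 11, 9 lay in the deep stretch of the Gm36876 window and 2 in that of chromosome 3. At chr11:109011755 the level was 6% in TSPAN8-high with 3340 reads and 11% in TSPAN8-low with 3553 reads (adjusted p = 1.23e-08, Fisher's exact test). On chromosome 3, the cytosine at 5860740 was at 3% with 2866 reads and 7% with 2770 reads (adjusted p = 3.53e-07, exact test), and that at 5860619 at 9% with 1351 reads and 17% with 1246 reads (adjusted p = 7.16e-05, exact test). The deposited levels are rounded to whole percents, which matters at differences this small. With both levels moved by 0.5 points towards each other, 6 cytosines passed, and the share of all cytosines is not given for that setting. The authors' deposited table gives a p of 1 at every one of the 902 window cytosines whose deposited difference is at most 9 points, so none of these 11 can pass there.

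Where a cytosine lay between 10% and 90%, the spread of the difference between the libraries was compared with the spread that counting alone would give. At the 645 such cytosines of the windows the standard deviation of the difference was 10.9 points, which was 1.15 times the counting value. At such cytosines elsewhere the ratio was 1.38, and it was 1.48 at those with at least 30 reads. Among the kinds of window it was 1.08 in those of chromosome 2, chromosome 14 and Gm33838, 1.13 in the other 11, 1.25 in the deep low windows and 1.39 in the gene-end windows, and it was 1.91 in the left-out chromosome 17 window. The share of cytosines with an even read count differed between these sets too. It was 73.0% (TSPAN8-high) and 73.1% (TSPAN8-low) elsewhere, and 57.6% and 57.3% in the windows. The windows of chromosome 2, chromosome 14 and Gm33838 had 50% in both, and the gene-end windows 74.4% and 82.2%. The left-out chromosome 17 window had 47.9% and 53.0%. Whether molecules were counted more than 1 time, which bears on the ratio, was not tested. With 1 library per fraction the spread between repeated libraries is unknown.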

How the data were processed

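The RRBS libraries of 2 of the 10 samples were used, and the 8 chromatin samples were not analysed here. The table deposited by the authors lists the 2 cytosines of a CpG, 1 per strand, on lines of their own. The deposited levels are fractions given to 2 decimals, the share of reads that were methylated. The deposited coverage columns are read counts, none below 5 in either library. The authors' deposited p-value is 1 wherever the deposited difference (unit other, TSPAN8-high minus TSPAN8-low as a fraction) is at most 9 points. Per the submitters' processing notes mm9, mm10, Bowtie and SICER were used, with no role stated, and the aligner and caller of this table are not given in the sources used here. Positions matched CpGs of the GRCm38.p6 promoter table, so mm10 was used.

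The number of methylated reads was taken as the nearest whole number to level times coverage. Only cytosines covered by 10 or more reads in each library were kept. Pooled reads of windows and reads of cytosines were compared with two-sided Fisher's exact tests (numba 0.67.0, checked against scipy 1.17.1 and tested on simulated data), with Benjamini-Hochberg adjustment over the whole table. Exact tests and Newcombe intervals treat reads as independent molecules, which reads without molecular identifiers are not, and so cover counting error only. Gene spans came from RefSeq, which gave neither strands nor exons in the table used. Every window was named, with its non-placeholder genes. The rule for cytosines named the 10 or fewer called, and since none was called, the cytosines printed were chosen after their values were seen, by adjusted p or by depth. The windows, lists and tests were chosen with earlier results of these data known. Alternatives were other read minimums, weights, depths, window positions and sizes, strands, left-out windows, halved reads, 1 cytosine per 100 bp, other minimum differences and the deposited p.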

Additional observations from a re-analysis of the deposited data

How the results depend on the processing

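No paired analysis was possible because each fraction is 1 library. The mean level of the window cytosines in TSPAN8-high and TSPAN8-low was 49.4% and 49.7% with at least 5 reads, 42.8% and 43.2% with at least 20, and 41.7% and 42.1% with at least 30. Weighted by reads it was 32.4% and 33.6%, and with each window weighted equally 47.4% and 47.9%. It was 44.4% and 45.6% in the 7 windows with a median of at least 50 reads, and 45.1% and 46.8% in the 5 with at least 100. Windows shifted by 5 kb gave 47.4% and 48.3%, and windows of 5 kb gave 47.8% and 48.5%. Without the Hjurp window it was 47.9% and 48.7%, without the Gm36876 window 46.5% and 46.9%, on the plus strand 45.3% and 45.8%, and on the minus strand 46.0% and 46.7%. Without the 3 gene-end windows, a choice made after seeing the data, it was 47.7% and 48.3%. The mean difference stayed below 0 under each of these settings. It was -0.286 points with at least 5 reads, -1.27 weighted by reads, -1.23 and -1.73 at medians of at least 50 and 100 reads, and -0.876 in shifted windows. The cause was not tested.

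Calls of windows rose from 0 to 9 with no minimum difference and to 2 with at least 5 points, and calls of cytosines from 0 to 11 with no minimum. Both stayed at 0 under the other planned settings, where 15 windows could be tested with at least 20 reads. Of alternatives added after seeing the data, halved reads left 2 of the 9 windows and 2 of the 11 cytosines, and 1 cytosine per 100 bp left 2 and 1. These counts have no share of all windows or cytosines beside them.

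With 1 library per fraction no difference was set against a spread between replicates. The sequence and copy number of the windows were not measured. If a window stands for several copies, a difference in level on all copies and a difference in the share of methylated copies cannot be told apart. Whether conversion of unmethylated cytosines or the placement of reads differed between the libraries was not tested.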
